A study of Mus musculus with 319 samples.

Results

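The heat shock proteins and their DnaJ co-chaperones were taken as all array probes whose symbol in the array's probe-to-gene table begins with Hsp followed by a letter or digit, or with Dnaj. The rule found 85 probes of 53 genes among 23382 probes, of which 13639 carried 1 gene symbol, 48 carried several and 9695 carried none, and which named 11631 genes. A single probe stood for 43 of the member genes, and 10 genes had several, up to 11 each for Hspa8 and Hspd1. All 85 probes had a value on at least 80% of the arrays, 76 of them on every array, so no member was lost to the filter on missing values. Hspa1b, Hsp90ab1, Dnajb4 and Hspb8 had no named probe and were not analysed here.

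The samples were muscle RNA from F2 mice of a cross between the strains C57BL/6J and C3H/HeJ, 319 arrays in all. Both parental strains carried the ApoE null background, so every animal lacked apolipoprotein E, and all were kept on a high fat Western diet between week 8 and week 24 of life. Each array set an animal's RNA (Cy3 dye) against a pool (Cy5 dye) made of the RNA of all animals in equal amounts. The labels name both sexes but give the sex, genotype, litter and kind of muscle of no single array, so the arrays formed 1 group and all comparisons were made across animals. A value is the log2 of animal over pool and tells how far an animal lay above or below the pool, not how abundant a transcript was.

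The direction of the ratio was checked on Eif2s3y, a gene of the Y chromosome. It lay at a median of 1.08 on 155 arrays and of -5.62 on the other 164, with no array between -0.79 and -3.71, and its highest value was 1.49. A transcript that part of the animals lack can lie far below a mixed pool but only slightly above it, which fits animal over pool as the dyes in the labels give it. No array was assigned a sex. Fits on Hspa1a were also run on each side of this gap, and differences between the sides were not tested. Other fits, that on the slow fibre score among them, were run with Eif2s3y in the model but not on each side.

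Arrays differed in spread, with an SD over all probes between 0.213 and 1.08 (median 0.358), and 20 arrays were outlying. The correlation between pairs of arrays had a median of 0.270, and 3753 of 50721 pairs lay below -0.3. The first principal component held 18.3% of the variance and 15 of 85 member probes had a correlation beyond 0.5 in size with it, against 20.8% of all probes. A higher lymphocyte score set apart 57 of the 319 arrays. In bulk tissue, fewer cells of a type and less RNA per cell cannot be told apart.

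Chaperones of the Hspa family bind unfolded stretches of other proteins and release them in a cycle driven by ATP, which DnaJ proteins start and nucleotide exchange factors such as Hsph1 reset. Some cytosolic members, Hspa1a above all, are almost silent in unstressed tissue and are switched on by heat shock factor when proteins unfold, while Hspa8 and others are made all the time. The endoplasmic reticulum and the mitochondria have their own sets, led by Hspa5 and by the Hspd1 and Hspe1 chaperonin, and striated muscle is rich in small heat shock proteins that guard its filaments.

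Promoters are shown because heat shock factor and the stress response of the endoplasmic reticulum act through short elements in them. The heat shock element was searched as GAANNTTC, and in a longer form with any 2 bases and GAA after it, on both strands of windows running from 250 bases before to 50 bases after each RefSeq gene start in build GRCm38.p6. Of the 53 member genes, 41 matched a window by gene. Hsp90aa1 and Hspa8 were among those without a window and were not searched. The short form stood in windows of 11 of these 41 genes, against 9.04% of all 27025 genes, and the long form in 4 of 41, against 0.662%. Every long match contains the short one. The 11 genes were the inducible Hspa1a, Hspb1, Hsph1, Dnaja1 and Dnaja4, the mitochondrial Hspd1 and Hspe1, the muscle small heat shock proteins Hspb3 and Hspb6, and Dnajb6 and Dnajc27. The inducible Dnajb1 and Hspa4l were searched and had no match to either form. The units in the other order, TTCNNGAA, were not searched alone. The long form was in Hsph1, Dnajb6, Hspd1 and Hspe1, the last of which share a promoter, their windows overlapping by 285 bases on opposite strands. The endoplasmic reticulum stress response element, searched as CCAAT, any 9 bases and CCACG on both strands, was in windows of Hspa5, Hsp90b1 and Dnajc3, 3 of 41 members against 0.137% of all genes. The 250 bases before the start of 4 members follow, with the matched motif in capitals (the short heat shock element in Hspa1a and Hspb1, a pair of overlapping long elements in Hspe1, the stress response element in Hspa5).
Hspa1a: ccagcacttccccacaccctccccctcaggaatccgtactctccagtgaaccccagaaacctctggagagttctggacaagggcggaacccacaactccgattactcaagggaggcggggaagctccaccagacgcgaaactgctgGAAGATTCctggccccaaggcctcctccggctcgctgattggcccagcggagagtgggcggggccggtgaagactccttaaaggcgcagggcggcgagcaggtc
Hspb1: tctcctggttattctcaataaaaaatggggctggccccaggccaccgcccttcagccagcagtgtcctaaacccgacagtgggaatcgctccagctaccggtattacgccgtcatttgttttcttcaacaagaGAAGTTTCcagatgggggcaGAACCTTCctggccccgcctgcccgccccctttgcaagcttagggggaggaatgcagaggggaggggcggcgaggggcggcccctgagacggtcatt
Hspe1: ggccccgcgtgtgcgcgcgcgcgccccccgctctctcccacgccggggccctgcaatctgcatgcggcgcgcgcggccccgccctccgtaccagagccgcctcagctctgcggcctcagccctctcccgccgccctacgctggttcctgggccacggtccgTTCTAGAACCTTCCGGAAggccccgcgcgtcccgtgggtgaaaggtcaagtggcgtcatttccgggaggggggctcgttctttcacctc
Hspa5: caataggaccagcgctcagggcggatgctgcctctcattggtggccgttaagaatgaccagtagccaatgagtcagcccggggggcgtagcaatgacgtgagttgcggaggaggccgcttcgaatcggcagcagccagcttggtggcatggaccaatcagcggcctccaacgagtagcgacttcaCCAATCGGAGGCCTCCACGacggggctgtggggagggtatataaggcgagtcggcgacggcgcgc
The Hspa1a window is chr17:34972157-34972406 on the minus strand, with its match beginning 104 bases before the start. The Hspb1 window is chr5:135887669-135887918 on the plus strand, with matches 117 and 97 bases before the start. The Hspe1 window, chr1:55087898-55088147 on the plus strand, has its long matches at 89 and 84 bases, and the Hspa5 window, chr2:34771840-34772089 on the plus strand, has its match at 65 bases. A match of letters is a description and shows no binding.

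The members varied between animals about as much as other transcripts. The range between the 5th and the 95th percentile of arrays exceeded 1 log2 unit for 23 of 85 member probes (27.1%), against 23.4% of all 23190 probes tested. The median SD over arrays was 0.275 for the members and 0.227 for all probes. Hspa1a, the stress-inducible cytosolic chaperone, had on its second probe the largest SD among the member probes with no value at a limit of the scale. That probe ran from a lowest value of -2.08 through a median of -0.83 to a highest of 3.39 (SD 1.02), and its first from -0.90 through -0.21 to 2.62 (SD 0.50). Most animals thus lay below the pool and a minority far above it, on both probes.

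The next largest SD belonged to Dnajc7, a co-chaperone that carries clients between the Hspa and Hsp90 families, with values of -2.13, -0.22 and 0.84 (lowest, median, highest; SD 0.62). Dnaja4, an Hspa co-chaperone rich in muscle, had -2.49, -0.03 and 1.07 (SD 0.46). At the other end, the endothelial Hspa12b had an SD of only 0.107, Hspd1 probe 3 of 0.113 and Hspa8 probe 1 of 0.121. The ranking therefore separated probes of 1 gene: among the 11 Hspa8 probes, probe 5 had an SD of 0.50. Apart from Hspa1a, 8 probes had a low tail of 15 to 26 arrays split from the rest by more than 4 within-group SDs: Hspa8 probes 2, 5 and 6, both Dnajc2 probes, Dnajc8 probe 2, Dnajc12 and Hspa4. A split had to leave at least 15 arrays a side, so a tail of 15 is the smallest that could be found. Such a tail may include arrays close to the rest. In all, 34 arrays lay in at least 1 of these tails and 9 arrays in all 8, and 9 of the 34 were among the 20 arrays of outlying spread. The part of array quality in these tails was not tested.

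Whether the inducible members followed Hspa1a more than the constitutive ones did was examined on the mean of its probes, which ran from -1.23 through a median of -0.54 to 3.00 (SD 0.75). A split at 0.20 to 0.23 left 261 arrays below and 58 above, apart by 4.29 within-group SDs, though no empty interval in the values was wider than 0.166. Of the 58 high arrays, 56 lay above the Eif2s3y gap and 4 above the lymphocyte gap. Because the values fall into these parts, no correlation of Hspa1a over all arrays is given. The limma slopes over all arrays, given next, and their p-values carry the same limit. Fits with Eif2s3y in the model and within the parts follow them. The copies Hspa1a and Hspa1b are nearly identical, so either transcript may have given the signal.

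Most cytosolic chaperones that heat shock induces rose with Hspa1a, and the members of the endoplasmic reticulum did not pass the test in either direction. By limma over all 23188 probes, with the slope in log2 units per SD of Hspa1a and Benjamini-Hochberg adjustment, 18 of the 83 other member probes rose (8.88% of all probes did) and 3 fell (7.75% of all). The median slope was 0.015 over the members and 0.0014 over all probes. The inducible cytosolic list held Hspa1a, Hsph1, Hsp90aa1, Dnajb1, Dnaja1, Dnaja4, Hspb1 and Hspa4l, and the constitutive one Hspa8, Hspa4, Hspa14, Hspa2, Dnaja2, Dnajb2, Dnajb6, Dnajc5, Dnajc7 and Hspbp1. Of the inducible cytosolic list 7 of 10 probes rose and 1 fell, of the constitutive cytosolic list 8 of 24 rose and 2 fell, of the mitochondrial list 2 of 19 rose, of the small heat shock proteins 1 of 5 rose (Hspb1, also in the inducible list), and of the endoplasmic reticulum list none of 8 passed. These are counts of probes, and Hspa8 gives 11 of the 24 constitutive and Hspd1 11 of the 19 mitochondrial ones.

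The slopes were steepest for Hsp90aa1, Hspb1 and Dnaja1. Hsp90aa1, the inducible cytosolic form of its family, lay between -0.72 and 1.41 with a median of -0.07, and its slope on Hspa1a was 0.26 ± 0.013 (SE, adjusted p = 5.52e-54 by limma). Hspb1, a small heat shock protein that binds actin and desmin filaments, lay between -0.75 and 1.64 with a median of 0.05, with a slope of 0.22 ± 0.015 (limma adjusted p = 8.71e-36). Both were thus high in the animals in which Hspa1a was high. Dnaja1, a cytosolic co-chaperone that starts the Hspa cycle, rose on 3 of its 4 probes, with slopes of 0.19, 0.12 and 0.10, while probe 4 gave 0.024 and did not pass. Hsph1, the nucleotide exchange factor, lay between -0.76 and 1.26 (median 0.015) and had a slope of 0.12 ± 0.015 (limma adjusted p = 1.28e-10), and its relative Hspa4l one of 0.078 ± 0.012. Hspa8, the constitutive counterpart of Hspa1a, rose on 6 of its 11 probes, but no slope was above 0.066. The 3 probes that fell were Dnajb1 (-0.067 ± 0.016), Dnajb6 probe 3 (-0.058 ± 0.016) and Hspa14 (-0.032 ± 0.0086). Dnajb1 is the classical heat-inducible DnaJ protein, and it was the one inducible member on the falling side.

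**Figure D1:**
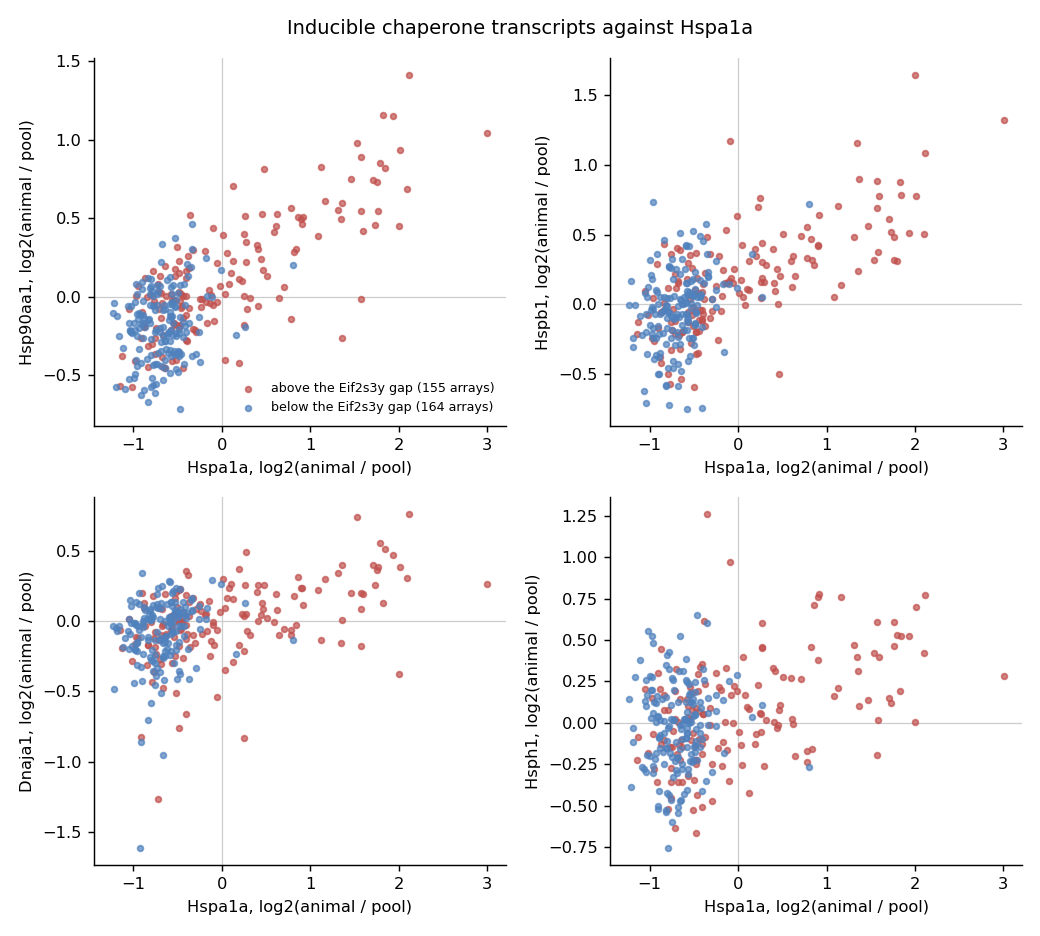
Log2 ratio of Hsp90aa1, Hspb1, Dnaja1 and Hsph1 (vertical axes, 1 panel each, mean over the gene's probes) against that of Hspa1a (horizontal axis), 1 point per array, coloured by whether the array lies above (155) or below (164) the Eif2s3y gap. The arrays with Hspa1a above 0.23 are nearly all above the gap, and along them the points of Hsp90aa1 and Hspb1 climb with Hspa1a.

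Since the high Hspa1a arrays lay almost wholly above the Eif2s3y gap, Eif2s3y was added to the model, an alternative chosen after the data were seen. Then 13 of 83 member probes rose and none fell, against 0.336% and 0.0216% of all probes, which is 78 and 5 of 23188. Of the 13, 8 belonged to the 10 probes of the inducible list: Hsp90aa1 (0.24 ± 0.015), Hspb1 (0.23 ± 0.017), 3 probes of Dnaja1 (0.19, 0.12 and 0.10), Dnaja4 (0.12 ± 0.029), Hsph1 (0.12 ± 0.018) and Hspa4l (0.092 ± 0.013). The others were Hspa8 probes 4, 7, 8 and 10 (0.064 to 0.073), which track each other, and the testis chaperone Hspa1l (0.076), whose gene lies beside Hspa1a. Limma adjusted p-values of the 13 lay between 3.34e-39 for Hsp90aa1 and 0.0306 for Hspa1l. None of the 8 endoplasmic reticulum probes and none of the 19 mitochondrial probes passed in this model. The slope of Dnajb1 was then -0.022 ± 0.018 and did not pass (limma adjusted p = 0.661). Members outside the inducible list that rose numbered 5 with Eif2s3y in the model and 11 without it.

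**Figure D2:**
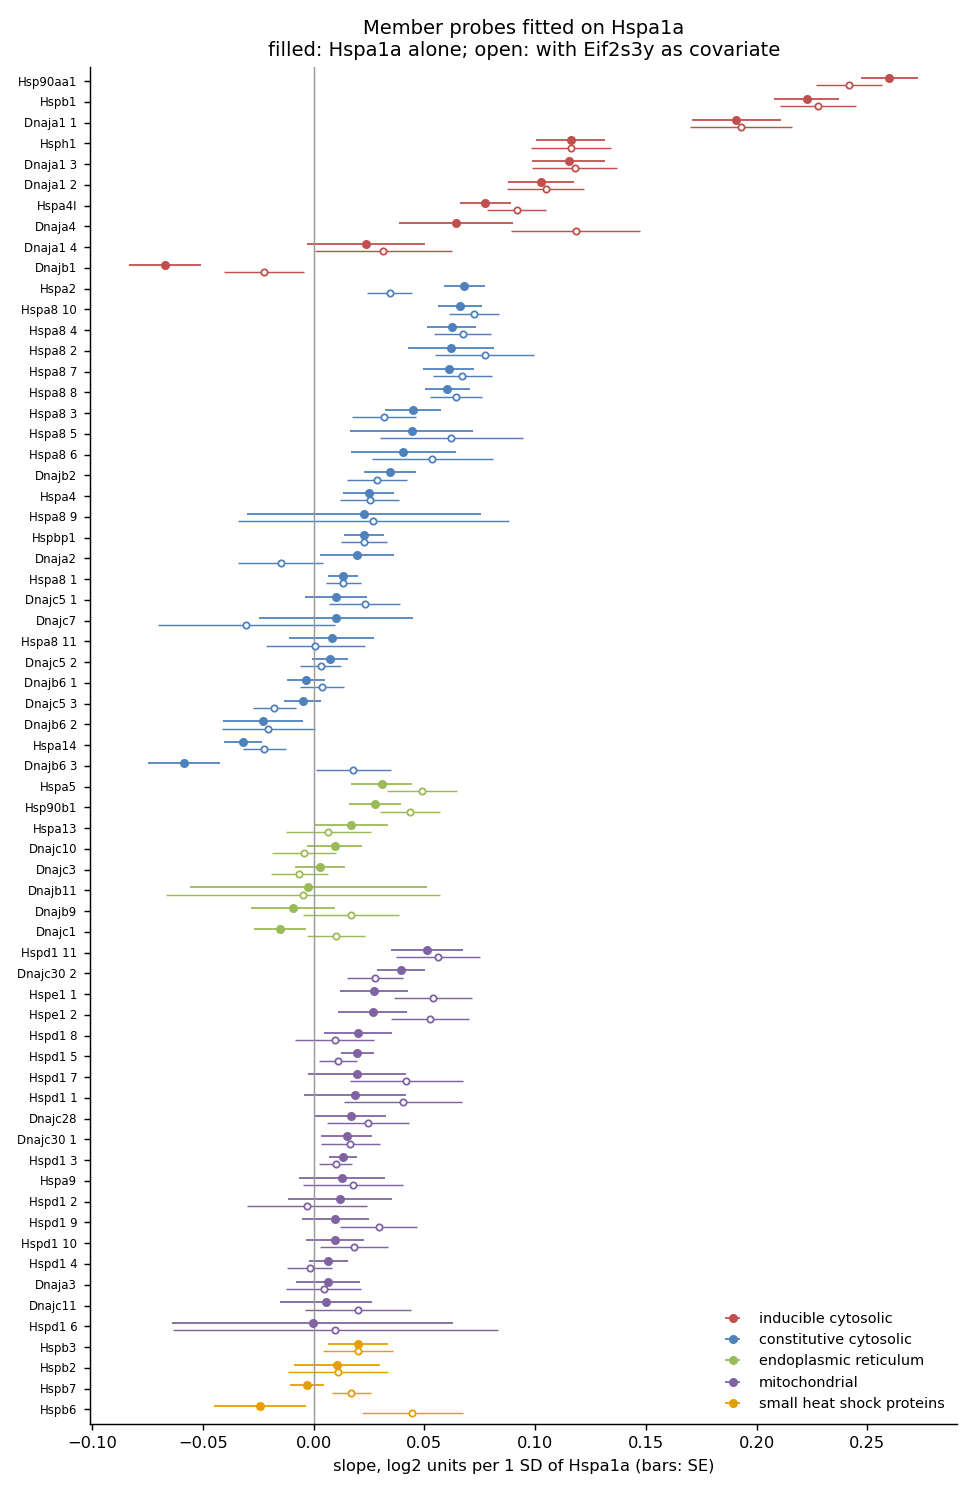
Slope of member probes on Hspa1a (horizontal axis, log2 units per SD of Hspa1a; bars are the SE), in 5 classes from inducible cytosolic to small heat shock proteins, filled without and open with Eif2s3y in the model. Hsp90aa1 and Hspb1 lie farthest right, at 0.26 and 0.22 without and at 0.24 and 0.23 with it, and the endoplasmic reticulum members stay near 0.

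The arrays on each side were also fitted alone, again chosen after the data were seen. Above the Eif2s3y gap 11 member probes rose and none fell (0.203% and 0.00862% of all probes), and 7 of the 11 were inducible. Below it 3 rose and none fell (0.388% and 0.0517%), namely Dnaja4, Hspb1 and Hspa2, the last a constitutive relative. Above the Hspa1a split, with 58 arrays, Hsp90aa1 and Hspb1 rose and no member fell (0.0259% and 0%), and below it Hspb1, Hsp90aa1, Dnaja1 probe 1, Hspa2 and Hspa8 probe 8 rose and none fell (1.2% and 0.677%). Hspb1 is thereby the one member probe that passed in every 1 of these fits. Below the Eif2s3y gap 11 of 15 slow fibre probes rose with Hspa1a as well, against none above the gap, and no macrophage or lymphocyte probe passed on either side. The part of slow fibres in the relation below the gap was not tested.

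Correlations with Hspa1a were also taken within the sides of the Eif2s3y gap. With 100000 permutations (two-sided, adjusted over 182 relations, where 1e-05 is the smallest raw p and 3.14e-05 the smallest adjusted p they can give), Hsp90aa1 and Hspa1a had r = 0.783 and rho = 0.700 above the gap (both permutation p = 1e-05, both adjusted to 3.14e-05) and r = 0.220 and rho = 0.141 below it (permutation p = 0.00436 and 0.0717, adjusted 0.0102 and 0.121). With the 2 most extreme arrays of Hspa1a left out on each side, r was 0.763 above and 0.191 below. Hspb1 had r = 0.709 and rho = 0.686 above the gap (both permutation p = 1e-05, adjusted to 3.14e-05, r without the 2 arrays 0.675) and r = 0.314 and rho = 0.302 below it (permutation p = 7e-05 and 0.0001, adjusted 0.000205 and 0.000268, r without the 2 arrays 0.257). Hspb1 thus passed on either side, and Hsp90aa1 passed below the gap on r but not on rho. On the sides of the Hspa1a split, Hsp90aa1 had r = 0.675 above and r = 0.357 below, and Hspb1 had r = 0.619 above and r = 0.348 below. Hsph1 had r = 0.467 above the gap and r = 0.039 below it, where the adjusted permutation p was 0.714, and Hspa4l had r = 0.479 and r = 0.062 in the same order. Dnaja4 had r = 0.249 above and r = 0.317 below, and Hspa8, on the mean of its probes, had r = 0.234 above and r = 0.205 below. Dnajb1 had r = -0.120 and rho = -0.264 above the gap (permutation p = 0.135 and 0.00096, adjusted 0.212 and 0.00236), and leaving out the 2 arrays farthest from the median took r to -0.349, so its value rests on them.

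Members of 1 class differed widely in how they followed each other. Without Hspa1a, the mean pairwise correlation over arrays was 0.181 among the 7 inducible genes (SD 0.325 over 21 pairs, median 0.338) and 0.119 between inducible and constitutive genes (SD 0.290 over 70 pairs, median 0.126). Among the constitutive genes it was 0.074 (SD 0.316 over 45 pairs, median 0.141). The mean there was below that between inducible and constitutive genes, and the median was above it. The mean was 0.312 among the 5 small heat shock proteins (SD 0.189 over 10 pairs, median 0.339). It was 0.180 among the 7 mitochondrial genes (median 0.248) and 0.076 among the 8 endoplasmic reticulum genes (median 0.038). Pairs among 4000 single probes drawn from the array had a median of 0.0032, while the class values are between means of a gene's probes. These values are descriptions, and pairs share arrays and genes.

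Some chaperone genes outside the rule rose with Hspa1a, and which of them passed depended on the model. Without Eif2s3y, 6 of 36 probes rose and 2 fell, Cct5 and Tcp1. With Eif2s3y in the model, 7 of 36 probes of co-chaperones, chaperonin subunits and related genes rose and none fell: Cryab (0.15 ± 0.026), a small heat shock protein of muscle, Bag3 (0.12 ± 0.028), its partner in removing damaged filament proteins, Serpinh1 (0.10 ± 0.023), the collagen chaperone, the co-chaperones St13 and Stip1 (0.053 and 0.052) and 2 probes of Cct3 (0.035 and 0.033). The other probes of St13 (-0.026 and -0.0026), Stip1 (0.020) and Cct3 (0.0011) did not pass in that model. The slope of Cryab without Eif2s3y was 0.023 and did not pass (limma adjusted p = 0.591). Within the sides of the Eif2s3y gap 5 of the 36 probes rose above it and none passed below it. Of the 11 immediate early probes 1 rose, Atf3 (0.13 ± 0.024), and none of the 34 proteasome, 15 slow fibre, 13 unfolded protein response, 16 macrophage or 13 lymphocyte probes passed. All 3 probes of the cold-inducible Cirbp and Rbm3 rose without Eif2s3y (0.040 for Cirbp, 0.092 for both of Rbm3), and none passed with it, when Cirbp had 0.0045 and the Rbm3 probes had turned to -0.062 and -0.061. Genes were also ranked by correlation with Hspa1a over all arrays, which is not given as a value. Nearest on the high side, besides Eif2s3y itself, were SRXN1, an antioxidant enzyme, Odc1 and Smox, enzymes of polyamine metabolism, and Cds1. On the low side were Zfp503, Flrt3, Neu2, Ddx3x and Gstm2. Within the sides of the Eif2s3y gap SRXN1 kept r = 0.515 above and r = 0.423 below, and Flrt3 r = -0.299 above and r = -0.219 below, all with adjusted permutation p of 0.0111 or less. Odc1 had r = 0.283 above and r = 0.016 below, and Cds1 r = 0.225 above and r = -0.059 below. Among probes chosen after their values were seen, Xirp1 (0.27 ± 0.034), Tnfrsf12a (0.18 ± 0.028) and Crem (0.12 ± 0.019) also rose with Eif2s3y in the model, the first encoding a protein of the muscle's attachment sites.

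Probes of 1 member gene did not always follow each other, which limits what a gene mean holds. There were 127 such pairs in 10 genes. In 26 of them r was above 0.5 and in 33 it was below 0, and by permutation adjusted over the 127 pairs 69 were positive and 9 negative. The median over pairs within a gene had a median of 0.303 across the 10 member genes, and across 1282 other genes with several probes it was 0.152 (quartiles -0.060 and 0.419). The 2 probes of Hspe1, the small chaperonin subunit, had r = 0.990 and rho = 0.991 (each permutation p = 1e-05, adjusted 2.23e-05 for r and 1.98e-05 for rho, r without the 2 farthest arrays 0.991). Those of the ribosome-bound Dnajc2, which have a low tail, had r = 0.972 over the 285 arrays outside all such tails, a set chosen after the data were examined. For Hspa1a the probes had r = 0.927 above the Eif2s3y gap and r = 0.556 below it. Probes 1 to 3 of Dnaja1 had r between 0.729 and 0.920, but probe 4 had r between -0.017 and 0.032 with them and did not pass. Probe 4 has 1 array at the lower limit of the scale (-6.64, where its 5th percentile is -0.34). That value enters its r, and its part in the low r was not tested. The 3 probes each of Dnajb6 and Dnajc5 gave r of at most 0.229 and 0.020, probes 2 and 3 of Dnajc5 carrying a gene ID that differs from that of probe 1 and was not found in the mouse RefSeq table, and the pair of Dnajc8 gave r = 0.279 over the 285 arrays.

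The 11 Hspa8 probes fell into groups. Probes 2, 5 and 6, which have low tails, had r between 0.808 and 0.967 over the 285 arrays outside the tails, and probes 4, 7, 8 and 10 had r between 0.792 and 0.987 over all arrays. Probes 5 and 10 had r of only 0.138 over the 285 arrays, while probes 2 and 8 joined the groups at 0.847. Probe 9 had r of at most 0.197 with any other, with 2 arrays at the lower and 2 at the upper limit of the scale included. The median over the 55 pairs was 0.343. For Hspd1 the median over 55 pairs was 0.034: probes 1, 7 and 9 had r between 0.909 and 0.990, while probe 8 ran opposite to them, with r of -0.514, -0.481 and -0.379 in that order. Without the 34 arrays of the low tails, left out after their values were seen, r of probe 8 with probes 1, 7 and 9 was -0.193, -0.166 and -0.0072, so the opposition was near 0 for probe 9. Leaving out those arrays gave 28 pairs above 0.5, of which 24 were among the 26 above 0.5 on all arrays. Whether the separate groups of probes match other transcripts, isoforms or pseudogenes was not tested, since the probe sequences were not used here.

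**Figure D3:**
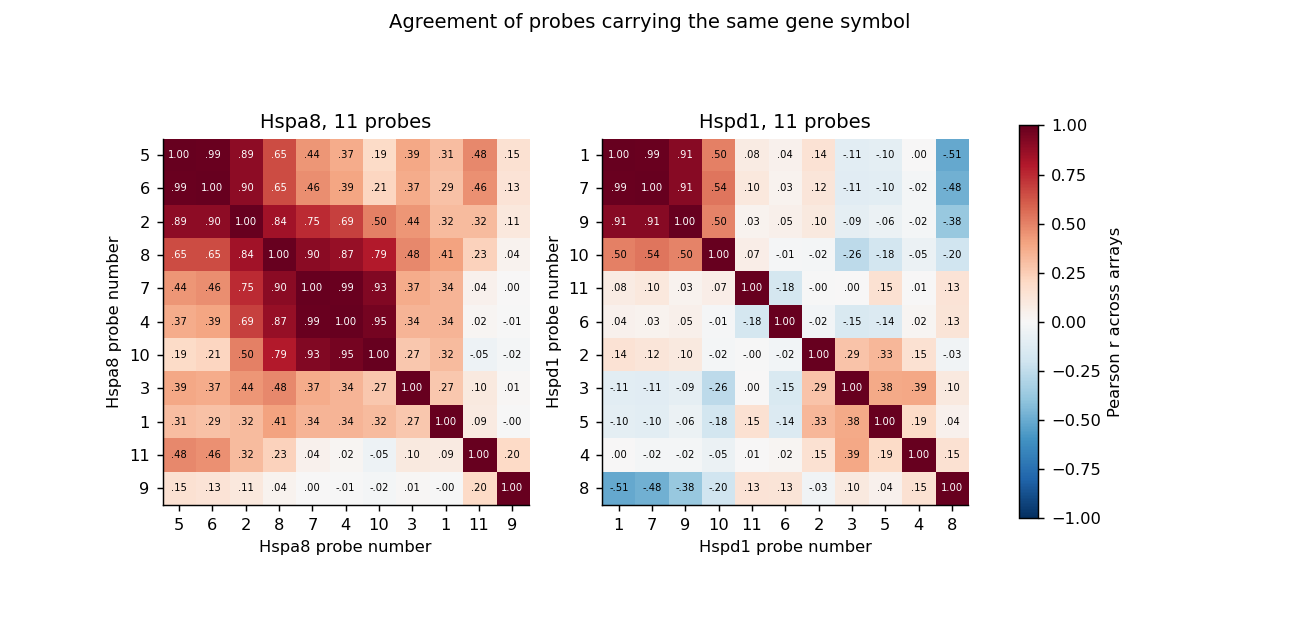
Pearson r between the 11 probes of Hspa8 (left) and the 11 probes of Hspd1 (right), each cell 1 pair of probes over the arrays with both values, on a scale from -1 to 1. Blocks of high r stand apart within each gene, probes 1, 7 and 9 of Hspd1 among them, and Hspd1 probe 8 is negative against that block.

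Most member probes rose with the proteasome, the protease that degrades ubiquitin-tagged proteins. Its score was the mean of the standardised values of 24 constitutive subunit genes, none of them a member. By limma 53 of 85 member probes rose with it (43.7% of all 23156 probes did) and 9 fell (23% of all), and the median slope was 0.052 log2 units per SD for the members and 0.018 for all probes. Of the mitochondrial list 14 of 19 probes rose and none fell, of the constitutive list 17 of 24 rose and 2 fell, of the inducible list 7 of 12 rose and 1 fell, and of the small heat shock proteins 4 of 5 rose and 1 fell. Probes of 1 gene repeat in these counts: the 19 mitochondrial probes stand for 7 genes, with 11 from Hspd1. The 24 constitutive ones stand for 10 genes, with 11 from Hspa8. Of the 5 lists, the endoplasmic reticulum one alone had more falling probes than rising ones, 3 against 2 of 8: Hspa5, Dnajc1 and Dnajc3 fell, and Dnajb9 (0.19 ± 0.016) and Hspa13 (0.10 ± 0.016) rose.

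The steepest slopes on the proteasome score were those of Hspa8 probe 5, at 0.24 ± 0.025, of Dnajc21, at 0.23 ± 0.016, of Dnaja4, at 0.22 ± 0.023, of Dnajc2 probe 1, at 0.20 ± 0.016, and of Dnajc12, at 0.20 ± 0.016 (limma adjusted p from 2.73e-33 to 1.91e-18). Dnajc21 and Dnajc2 work at the ribosome and in its assembly. Dnajc21 lay between -3.09 and 0.56 (median 0.07), so its widest departures were below the pool. The named probes of Hspa8, Dnajc2 and Dnajc12 are among those with a low tail. The mitochondrial Hspa9 had a slope of 0.14 ± 0.018, Dnaja2 of 0.18 ± 0.013, and Hsph1 of 0.12 ± 0.015. The lowest were Dnajb1 (-0.15 ± 0.014, limma adjusted p = 8.09e-21), Dnajc22, Dnajc6, Hspb2 and Hspa5 (-0.057 ± 0.014). Hspa1a did not pass on either probe, with slopes of 0.0060 and 0.065, and Hsp90aa1 had -0.0017. Of the other chaperone genes 28 of 36 probes rose and 4 fell, the chaperonin subunit Cct6a at 0.13 ± 0.0096 among the rising and Serpinh1 at -0.18 ± 0.018 among the falling.

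Markers of macrophages and lymphocytes moved with the proteasome score as well. None of 16 macrophage probes rose and 15 fell, with a median slope of -0.28, and of 13 lymphocyte probes 1 rose and 12 fell, with a median slope of -0.54. With macrophage and lymphocyte scores in the model, 38 member probes rose and 11 fell, when 21.6% and 22.0% of all probes did. With the first principal component removed 40 rose and 16 fell (25.6% and 29.9%). Under these models in turn Dnajc21 kept slopes of 0.16 and 0.13, and Hspa5 had slopes of 0.000937 and 0.0074 that did not pass. On the macrophage score itself 9 member probes rose and 55 fell, when 21.5% and 53.7% of all probes did. The rising ones included Dnajb1 (0.14 ± 0.015), the neuronal Dnajc6 (0.13 ± 0.0090), and the endoplasmic reticulum members Dnajc3, Hsp90b1 and Hspa5 (0.087, 0.079 and 0.078). The lowest were Dnaja4 (-0.24 ± 0.022), Hspb6 (-0.21 ± 0.017), Hspa1l, Dnajc21 and Dnajc28.

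Along the slow fibre score, 2 small heat shock proteins of muscle and the inducible co-chaperone Dnaja4 rose. Other inducible members such as Hsph1 and Hsp90aa1 fell, though Hsp90aa1 did not pass with Eif2s3y in the model. Slow fibres are the oxidative, fatigue-resistant fibres of muscle, and the score held 11 genes such as those of slow myosin and troponin. By limma 10 of 85 member probes rose with it (7.31% of all 23175 probes did) and 6 fell (6.71%), so the counts were close to the background. Dnaja4 rose by 0.19 ± 0.024 log2 units per SD (limma adjusted p = 4.97e-12). Hspb6, a small heat shock protein of heart and slow muscle, lay between -1.30 and 0.82 (median -0.0050) and rose by 0.16 ± 0.019 (limma adjusted p = 1.93e-13), and Hspb7, another of heart and muscle, by 0.048 ± 0.0073. Dnajb6, a co-chaperone of the Z-disc, rose by 0.14 ± 0.015 on probe 3, but its probes 1 and 2 did not pass. Dnajc7, Hspa1l, Hspa2, both Hspe1 probes and Hspa5 were the other members that rose. The 6 falling probes were Hsph1 (-0.076 ± 0.016, limma adjusted p = 0.000127), Dnaja1 probe 1 (-0.065 ± 0.022), Hsp90aa1 (-0.058 ± 0.019), Dnaja2 (-0.057 ± 0.017) and probes 1 and 2 of Dnajc5. Of the inducible list 1 of 12 probes rose and 3 fell. With Eif2s3y in the model 13 rose and 3 fell (8.25% and 6.92% of all), and Hspb6 then had a slope of 0.14 and Hsph1 of -0.064, both past the threshold. Hsp90aa1 (-0.011), Dnaja1 probe 1 (-0.041) and Dnaja2 (-0.042) did not pass in that model (limma adjusted p = 0.761, 0.247 and 0.0821).

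**Figure D4:**
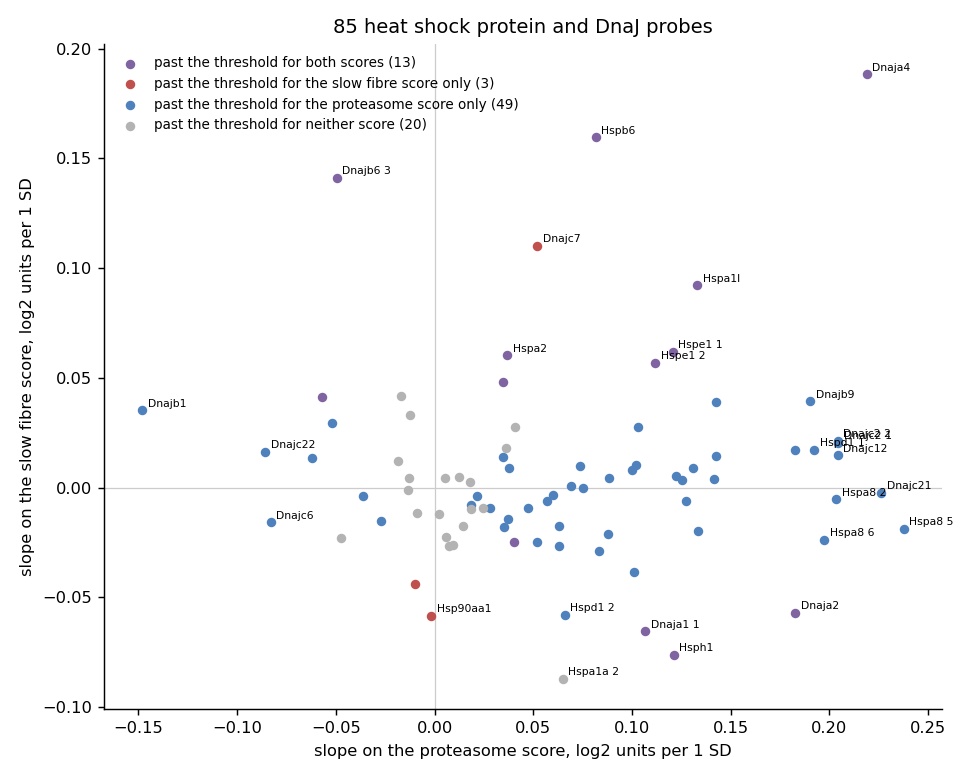
Slope of each of the 85 member probes on the slow fibre score (vertical axis) against its slope on the proteasome score (horizontal axis), both in log2 units per SD of the score. Past the threshold were 13 probes on both scores, 49 on the proteasome score alone, 3 on the slow fibre score alone and 20 on neither, and Dnaja4 lies far up and to the right while Dnajb1 lies farthest to the left.

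The endoplasmic reticulum members did not move as 1 set. Hspa5, the chaperone of the lumen, lay between -0.81 and 1.05 with a median of -0.06. It was followed by Dnajc3, its co-chaperone that also restrains a stress kinase, which lay between -0.55 and 0.76 with a median of 0.02 (r = 0.449, rho = 0.385, both permutation p = 1e-05, adjusted to 3.14e-05, r without the 2 farthest arrays 0.419). Hsp90b1, the lumenal form of its family, did so as well (r = 0.348, rho = 0.411, both permutation p = 1e-05, adjusted to 3.14e-05, r without the 2 arrays 0.401). Dnajc10, a lumenal reductase, passed as well (r = 0.212, rho = 0.160, permutation p = 0.00011 and 0.00451, adjusted 0.000308 and 0.00933). The windows of Dnajc3 and Hsp90b1 hold the stress response element and that of Dnajc10 does not. Hspa5, Dnajc3 and Hsp90b1 all rose with the macrophage score as well (0.078, 0.087 and 0.079). The part of cell content in these correlations was not tested. Hspa13 ran against Hspa5 (r = -0.272, rho = -0.215), and Dnajb9, Dnajb11 and Dnajc1 had r of -0.150, -0.050 and -0.032, of which the first passed on r (adjusted permutation p = 0.0163) but not on rho (0.810). The Dnajb11 probe has 3 arrays at the lower and 2 at the upper limit of the scale. These values enter its r, and their part in it was not tested. The gene ID of that probe was not found in the mouse RefSeq table.

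Over all members, 20 of 84 probes rose with Hspa5 and 39 fell, when 33.1% and 36.2% of all 23189 probes did. Markers of other cells rose with Hspa5, 13 of 16 macrophage, 11 of 13 lymphocyte and 7 of 10 adipocyte probes. Of the slow fibre probes, which mark muscle fibres, 9 of 15 rose as well, and their part was not tested. With macrophage and lymphocyte scores in the model 22 member probes rose and 26 fell (34.3% and 31.0% of all). The rising members included Hspd1 probe 8 (0.14 ± 0.013), Hspe1 probe 2 (0.14 ± 0.013) and Dnajc3 (0.090 ± 0.010), and the lowest were Hspa8 probe 5 (-0.24 ± 0.025), Hspd1 probe 1 (-0.20 ± 0.020), Hspb6, Dnaja4 and Dnaja3. The nearest genes outside the rule were Ldb2, Myl10, Hoxd11, Wnt8b and Rpl21, with r from 0.692 to 0.714, and at the other end Lrrc14b, Mlf2, Cacng1, Mafg and Dctn1, with r from -0.704 to -0.685 (all permutation p = 1e-05, adjusted to 3.14e-05, rho from 0.614 to 0.685 in size, over 319 arrays or 318 for Wnt8b). No gene of the unfolded protein response list is among these 10. With the unfolded protein response score, the mean of 12 genes such as protein disulphide isomerases that are not members, 13 of 85 member probes rose and 16 fell (24.3% and 24.8% of all 23177 probes). Of the endoplasmic reticulum list 1 of 8 probes rose, Dnajc1 at 0.035 ± 0.012, and none fell, and Hspa5 had a slope of -0.031 ± 0.014 that did not pass. The lowest were Hspe1 probe 2 (-0.094 ± 0.015), Hspd1 probe 8, Dnajc27, Dnaja1 probe 2 and Dnajb7, and the highest Hspb6 (0.10 ± 0.020), Dnajc28, Dnajc5 probe 1, Dnajb6 probe 3 and Dnajc30 probe 2.

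The mitochondrial chaperonin subunits Hspd1 and Hspe1, whose genes share a promoter, followed each other on some probes. Hspe1 lay between -1.29 and 0.88 with a median of -0.03. With Hspd1 probe 8 it had r = 0.357 and rho = 0.440, and with probe 9 r = 0.308 and rho = 0.309 (all permutation p = 1e-05, adjusted to 3.14e-05, r without the 2 farthest arrays 0.421 and 0.260). With probes 1 and 7, which carry the largest spread among the Hspd1 probes without values at a limit, it had r = 0.057 and 0.060, neither past the threshold (adjusted permutation p = 0.404 and 0.377). Probes 8 and 9, which each passed with Hspe1, had r = -0.379 with each other over all arrays and -0.0072 outside the low tails.

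On the mean of all Hspd1 probes, 44 of 74 member probes rose and 15 fell, when 34.4% and 36.7% of all 23179 probes did, and 7 of the 8 other mitochondrial probes rose. The highest slopes were Hspa8 probe 5 (0.30 ± 0.023), Dnaja4, Dnajc7, Dnajc21 and Dnajc2 probe 2, and the lowest Hspb2 (-0.13 ± 0.019), Dnajb1, Dnajc4, Dnajc5 probe 1 and Hspa5. With the Hspd1 probe of largest SD, probe 6, in place of the mean, 7 of 74 rose and 5 fell, when 9.69% and 15.2% of all probes did, so the rising count was then close to the background. Probe 6 has values on 314 arrays, 2 of them at the lower and 1 at the upper limit of the scale. Its r with the other Hspd1 probes lay between -0.179 and 0.126, so it stands for no other probe of the gene. It is also part of the mean. Markers of other cells moved with the Hspd1 mean: 13 of 16 macrophage and 12 of 13 lymphocyte probes fell (median slopes -0.13 and -0.31), as did 8 of 10 adipocyte probes. With macrophage and lymphocyte scores in the model 39 member probes rose and 16 fell (31.4% and 40.5% of all). The nearest genes outside the rule were BC052688, Selenok, Abcd3, Vdac3 and Ube2f (r from 0.616 to 0.683), and at the other end Ptbp1, Fau, Ifi30, Apobec3 and Sirt6 (r from -0.621 to -0.576), each with permutation p = 1e-05, adjusted to 3.14e-05, rho between 0.547 and 0.704 in size, and 281 to 319 arrays.

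The animal number, which the labels give from 1 to 359, stands for the order of the animals and is not named there as a batch. By limma 21 of 85 member probes rose with it and 8 fell, when 18.9% and 11.8% of all 23190 probes did. The steepest were Dnaja2 (0.090 ± 0.016 log2 units per SD of the number), Hspa1l, Hspb1 (0.074 ± 0.019), Hspa13 and Dnajc21, and the lowest Dnajc1 (-0.090 ± 0.011), Dnajc22, Dnajb6 probe 3, Dnajb1 and Hspa2. Lymphocyte probes moved with it too, 9 of 13 falling and none rising, as did 10 of 15 slow fibre probes, all falling. With macrophage and lymphocyte scores in the model 13 member probes rose with the number and 7 fell, when 10.4% and 7.42% of all probes did. The part of slow fibres in the result was not tested.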

How the data were processed

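The arrays carried 2 dyes, with 319 samples on 319 arrays, and per the labels each animal was in Cy3 and the pool in Cy5. The deposited table holds log10 ratios per probe and array that end at -2 and 2, and no background correction or normalization by the authors is given in the sources used here. Log base and direction were taken from the dyes, the limits and Eif2s3y. Values were multiplied into log2 ratios and not otherwise normalized. Tests took the 23190 probes measured on 80% of the arrays or more, and 0.654% of values were missing. Arrays give no counting depth, so their number limits the precision.

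Probes were named by the platform's gene table. Each probe was fitted with limma 3.58.1 (R 4.3.3) on a standardised score or index gene, with Benjamini-Hochberg adjustment over all probes at a threshold of 0.05. Probes used in a score or an index were left out of its fit. Genes outside the rule are named as the 5 of highest and the 5 of lowest correlation with an index gene, members as the 5 highest and 5 lowest slopes past the threshold, plus genes of the lists; others are said to be chosen after their values were seen. Hspa1b, planned as an index gene, had no named probe, and Hspa1a was used in its place. Correlations used 100000 permutations (SciPy 1.17.1), adjusted over 127 pairs of probes of 1 gene and 182 other pairs. Splits needed at least 15 arrays a side. The slope fit was tested on simulated data. The labels give 330 mice in the sample descriptions and 319 in the series. 1 array has the numbers 399 and 339 in its labels, and 339 was used. Animal number 227 stands on 2 arrays (r = 0.540), both kept. F2 animals may share parents, and p-values measure the spread between arrays. Alternatives were another scaling, arrays left out, a block of 20 animal numbers, covariates and 1 probe per gene. Promoter windows came from RefSeq. The members and lists were chosen with earlier results of these data known.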

Additional observations from a re-analysis of the deposited data

How the results depend on the processing

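Of 1399 comparisons of 120 named slopes with another setting, 1213 kept direction and call, 163 kept direction but lost the call and 23 changed sign. Of 213 comparisons of 21 counts and mean correlations, 182 stayed within the limits set and 31 moved. Why each value moved was not tested.

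Counts of member probes moved as follows. On Hspa1a (18 rising), 29 rose once arrays were quantile normalized, 11 above the Eif2s3y gap, 3 below it, 2 above the Hspa1a split and 5 below it; of those falling (3), there were 8 once arrays were quantile normalized, 5 without the first principal component, and 0 with Eif2s3y in the model or on either side of the gap or split. Quantile normalization also raised the share of all probes called on Hspa1a to 21.0% rising and 15.6% falling. Without the first principal component 9.21% of all probes fell with Hspa1a. For the next counts the share of all probes under the same setting is in brackets. On Hspa5, 25 fell below the lymphocyte gap (26.7%). On Hspd1 with the probe of largest SD 7 rose and 5 fell (9.69% and 15.2%). Also on Hspd1, 9 fell with quantile normalization (29.7%) or without arrays of outlying SD (25.8%). On animal number 6 rose below the lymphocyte gap (5.67%), 7 with the first principal component removed (5.73%) and 13 with macrophage and lymphocyte covariates (10.4%). On the macrophage score 15 rose with array medians subtracted (30.2%). There 28 fell below the lymphocyte gap (30.1%) and 15 fell with the first principal component removed (16.6%). On the proteasome score 16 fell with array medians subtracted (30.5%) or with the first principal component removed (29.9%). On the slow fibre score 3 fell with Eif2s3y in the model (6.92%), 10 below the lymphocyte gap (11.1%) and 13 with both cell covariates (11.7%). On the unfolded protein response score 23 rose with array medians subtracted, 21 with the probe of largest SD and 27 of 76 over probes with a value on every array, when 33.9%, 26.5% and 27.9% of all probes did, against 13 of 85 and 24.3% as reported.

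Some slopes changed sign. On Hspa1a below the Eif2s3y gap, Cds1 had -0.023, Ddx3x 0.030, Neu2 0.023, Dnajb1 0.0052, Dnajb2 -0.017 and Dnajb6 probe 3 0.068. The slope of Dnajb6 probe 3 on Hspa1a was 0.018 with Eif2s3y in the model and 0.0032 above the gap, that of Dnajb1 on Hspa1a 0.053 above the Hspa1a split, and that of Dnajb2 -0.0021 below it. On Hspd1, Dnajb1 had 0.0011 with the cell covariates and 0.029 with the probe of largest SD, where Hspa5 had 0.018. With the first principal component removed, the slopes on the macrophage score were -0.055 for Dnajb1, -0.0052 for Dnajc6 and -0.016 for Hspa5, and below the lymphocyte gap that of Dnajb1 was -0.0095. On the proteasome score Dnajc6 had 0.020 with the first principal component removed and 0.0096 with the cell covariates, and Hspa5 had 0.0074 and 0.000937 under these and 0.0024 below the lymphocyte gap. Hspb2 on the proteasome score had 0.017 without arrays of outlying SD. Through every alternative run, Dnaja4 and Hspb6 kept a rising and Hsph1 a falling call on the slow fibre score. No paired analysis was possible because the labels give 1 group.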
